A study of Mus musculus with 7 samples.

Results

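Expression of 37 genes of peroxisome biogenesis and peroxisomal lipid metabolism was followed in lipid-rich microglia of young and old male mice after stroke. The genes were listed by function, with earlier results of these data known, and comprised 13 peroxins (the Pex genes, which build the organelle) and 24 enzymes and transporters, out of 50686 genes in the expression tables. Wild-type C57BL/6 males of 3 to 4 months (Young) or 21 to 22 months (Old) underwent 45 min of middle cerebral artery occlusion, and live cells stained for CD11b and CD45 and positive for Bodipy, a dye of neutral lipid, were sorted from the forebrain 4 days later. The 4 young mice were coded 14C, 18C, 23C and 29C and the 3 old mice 2posI, 3posI and 4posI, 1 library per mouse. Values by mouse are given below in this order. All mice of both ages were ischemic and untreated, and all libraries came from the Bodipy+ fraction, so the comparison asks how the transcriptome of lipid-rich microglia after stroke differs with age.

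Peroxisomes take up very long-chain, branched-chain and other fatty acids that mitochondria do not shorten well, remove carbon units by beta-oxidation with release of hydrogen peroxide, and carry out alpha-oxidation and the first steps of ether lipid (plasmalogen) synthesis. Peroxins insert membrane proteins, recognise and import matrix enzymes, recycle the import receptors and divide the organelle. In microglia, defects of peroxisomal beta-oxidation are known from adrenoleukodystrophy and related disorders, in which very long-chain lipids build up.

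Expected counts summed to 36574083 to 53002386 per library and 141 genes were called (edgeR adjusted p under 0.05), of which 100 were higher with old age and 41 lower. The 5 microglia markers (P2ry12, Tmem119, Cx3cr1, Sall1 and Csf1r) summed to 6995 to 14100 CPM (CPM denotes counts scaled to library size with edgeR's TMM factors) in young and 4272 to 9563 CPM in old mice, the lowest being 3posI. The 5 monocyte and macrophage markers (Ccr2, Ly6c2, Plac8, Chil3 and Vcan) all had higher fitted levels in old mice and 0 were called, with summed levels of 14.8 to 74.7 CPM in young and 63.0 to 1916 CPM in old mice, the highest being 3posI, and none was at 0 in all libraries. The 5 endothelial markers (Cldn5, Pecam1, Flt1, Cdh5 and Slco1a4) all had lower fitted levels, with sums of 56.2 to 106.6 CPM in young and 42.9 to 56.4 CPM in old mice, and 1 of them was called. Markers of border macrophages summed to 52.8 to 232.4 CPM in young and 71.4 to 581.4 CPM in old mice, again highest in 3posI, those of neutrophils to 1.22 to 105.8 and 30.3 to 95.8 CPM, of astrocytes to 22.5 to 98.0 and 12.9 to 91.3 CPM, of oligodendrocytes to 46.3 to 51.1 and 44.4 to 69.2 CPM, and those of neurons and lymphocytes to at most 3.72 CPM in any library, with 0 called. Fitted levels were higher in old mice for 1 of 5 microglia markers, 5 of 5 border macrophage, 5 of 5 neutrophil and 3 of 5 astrocyte markers. Of those tested, 4 of 4 lymphocyte, 2 of 3 oligodendrocyte and 2 of 3 neuron markers were also higher. Ribosomal RNA made up 3.52 to 4.24% of counts in young and 1.62 to 2.84% in old libraries. The part of other cells or of RNA composition in the member values was not tested.

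Of the 37 genes, 36 were tested. Slc27a2, a very long-chain acyl-CoA synthetase, had 7 counts in 29C, 3 in 3posI and 0 in the other libraries, and was below the count minimum of 10. Most members differed little with age: 15 were higher and 21 lower in old mice, with a median log2 fold change of -0.08 (old minus young, edgeR quasi-likelihood test on counts) beside -0.01 for all 17559 genes tested. Only Mlycd, malonyl-CoA decarboxylase, was called, and it was lower in old mice at 51.5% of the young mean. The adjusted p (Benjamini-Hochberg over all genes tested) was under 0.05 for 0.233% of all genes in the lower direction and 0.57% in the higher direction. At an unadjusted p under 0.05, 7 of 36 members (19.4%) were lower and 0 higher, beside 8.79% and 10.1% of all genes tested. These 7 were Mlycd, Acox3, Ehhadh, Pex14, Abcd2, Abcd3 and Pex10. All old libraries lay outside the young range for 8 members in the lower direction (22.2%, against 9.07% of all genes), namely those 7 and Pex5, and for 2 in the higher direction, Pex3 and Agps (5.56%, against 8.67% of all genes). Without 3posI, 7 members again had an unadjusted p under 0.05 in the lower direction, Mlycd was called, and the fold changes of the 7 genes named ran from -0.30 (Abcd3) to -0.90 (Mlycd). Without 4posI, 7 members were lower and 3 higher at an unadjusted p under 0.05 (edgeR). In these bulk samples fewer cells expressing a gene and less RNA per cell cannot be told apart.

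**Figure D1:**
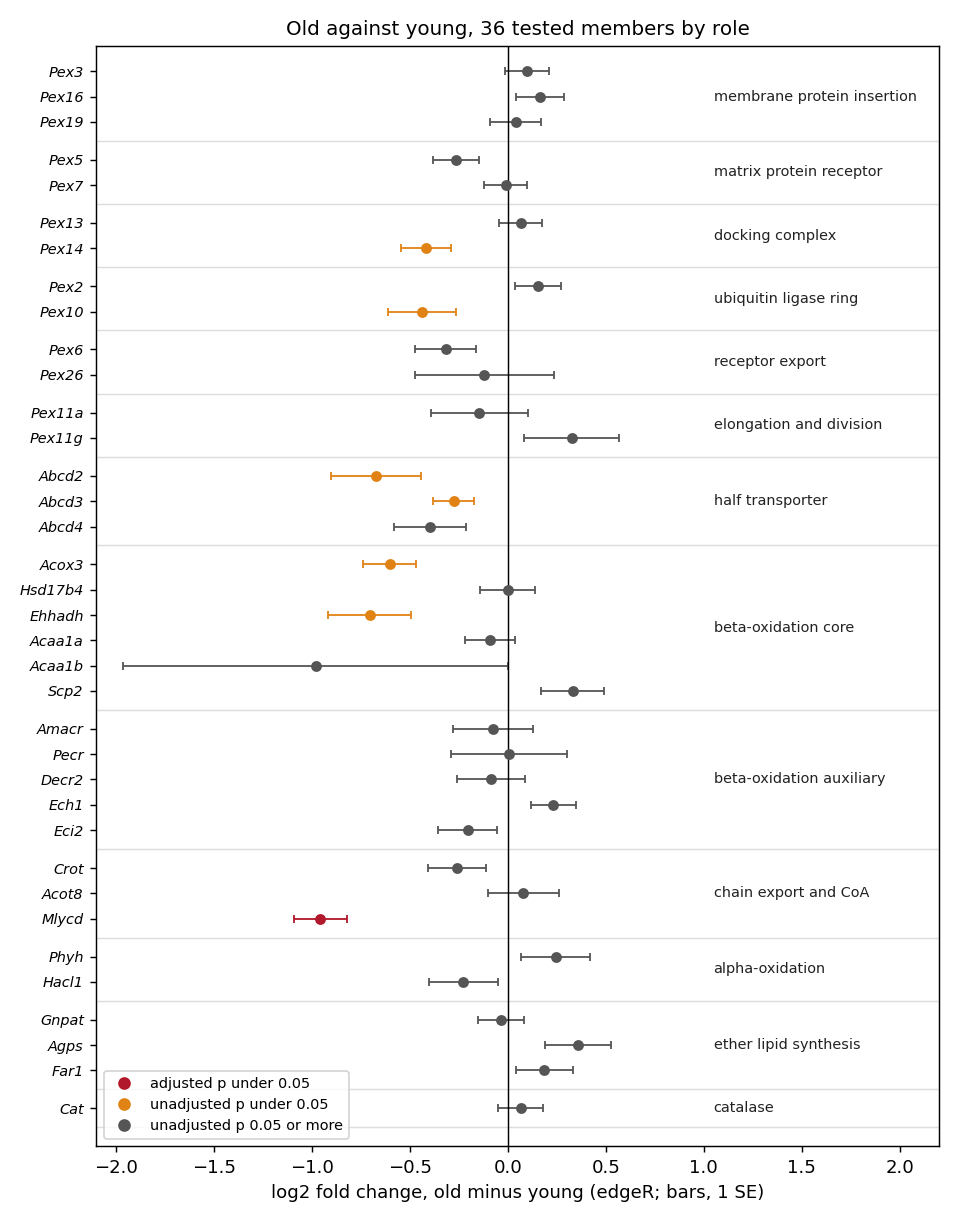
Log2 fold change (old minus young, edgeR on counts) of the 36 tested members on the x axis, grouped by role on the y axis, with bars of 1 SE; colour gives the p-value class. Mlycd alone has an adjusted p under 0.05, the other 6 coloured members have an unadjusted p under 0.05 and are all left of 0, and the long bar belongs to Acaa1b, which had few counts.

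The 250 bases before the RefSeq start (GRCm38.p6) are shown for the 3 members that edgeR or DESeq2 called, since these are the members on which the result turns. Capitals mark the CCAAT box (CCAAT, or ATTGG on the other strand) and the GC box (GGGCGG, or CCGCCC on the other strand), the only motifs marked.
Mlycd, chr8:119394644-119394893, plus strand: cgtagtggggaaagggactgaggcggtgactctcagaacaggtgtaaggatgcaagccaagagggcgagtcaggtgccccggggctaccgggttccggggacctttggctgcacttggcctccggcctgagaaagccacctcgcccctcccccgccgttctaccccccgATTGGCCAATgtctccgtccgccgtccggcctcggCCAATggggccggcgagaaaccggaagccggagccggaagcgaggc
Acox3, chr5:35582784-35583033, plus strand: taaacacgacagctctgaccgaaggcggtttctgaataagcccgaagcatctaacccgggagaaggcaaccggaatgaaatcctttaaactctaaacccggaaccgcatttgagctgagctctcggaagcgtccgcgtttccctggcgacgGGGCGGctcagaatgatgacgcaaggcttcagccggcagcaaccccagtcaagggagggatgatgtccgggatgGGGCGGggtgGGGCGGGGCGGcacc
Ehhadh, chr16:21787835-21788084, minus strand: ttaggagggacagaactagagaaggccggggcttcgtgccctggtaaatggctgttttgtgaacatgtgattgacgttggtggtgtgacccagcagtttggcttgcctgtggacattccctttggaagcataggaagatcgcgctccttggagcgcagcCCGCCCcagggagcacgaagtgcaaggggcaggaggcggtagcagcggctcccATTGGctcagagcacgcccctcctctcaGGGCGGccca
The Mlycd stretch held 3 CCAAT boxes, a pair of them adjoining back to back, and 0 GC boxes. That of Acox3 held 4 GC boxes and 0 CCAAT boxes, and that of Ehhadh held 1 CCAAT box and 2 GC boxes. Neither motif was present in all 3 stretches.

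Promoters of 31 of the 37 members, 35 in all, were matched in the RefSeq table, each with 250 bases before and 50 after the start. They were rich in CpG, with a median of 19 CpG beside 7 over all 32851 promoters, and 33 of 35 had more than that median. A GC box (GGGCGG, both strands) was found in 26 of 35 (74.3%), beside 35.7% of all promoters. A CCAAT box was found in 16 of 35 (45.7%, all 37.4%). The nuclear receptor motif AGGTCA (both strands) was found in 5 of 35 (14.3%, all 16.3%), at Cat, Pex11g, Phyh, Scp2 and Slc27a2, and 2 copies spaced by 1 base, the form bound by PPAR and RXR dimers, in 0 of 35 (all 0.0396%). The E-box CACGTG occurred in 1 (7.15% of all) and the TATA box TATAAA in 3 (13.6% of all). Among the 7 promoters of the members with an unadjusted p under 0.05 that matched, 4 had a GC box and 2 a CCAAT box. These are descriptions of letters in a window, and no relation of the motifs to the fold changes was tested.

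Transcript levels of the members spanned a wide range. On the TPM scale, which accounts for length, Scp2 stood highest in young mice at 142.5 ± 13.6 TPM (SD, n = 4), followed by Ech1 at 109.6 ± 8.25, Acaa1a at 98.5 ± 6.15, Eci2 at 78.3 ± 10.8 and Hsd17b4 at 76.0 ± 6.97. The young range of Scp2 lay above the others, whereas each of Ech1, Acaa1a, Eci2 and Hsd17b4 overlapped with its neighbour in this order. Peroxins were lower, from 44.0 ± 0.83 TPM for Pex19 and 42.0 ± 3.50 for Pex2, whose ranges overlapped, to 0.83 ± 0.27 for Pex26. At the low end lay Acaa1b at 0.31 ± 0.26 and Slc27a2 at 0.03 ± 0.06 TPM. Of the thiolase pair on chromosome 9, Acaa1a was abundant and Acaa1b near 0. Summed over the 24 enzymes and transporters, the young libraries held 948.5 to 1004 TPM and the old ones 885.4 to 912.5, without overlap. The 13 peroxins summed to 242.5 to 265.3 TPM in young mice and 215.0 to 239.9 in old mice, also without overlap. On the count scale (CPM) the same sums overlapped, with 1316 to 1410 CPM in young and 1199 to 1392 in old mice for enzymes and transporters, and 304.4 to 330.5 against 299.6 to 321.8 for peroxins. In TPM the median log2 fold change of all genes tested was itself negative, at -0.09 (limma on log2(TPM + 0.5)). On that scale 11.2% of all genes tested were lower in old mice without overlap and 6.26% higher.

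**Figure D2:**
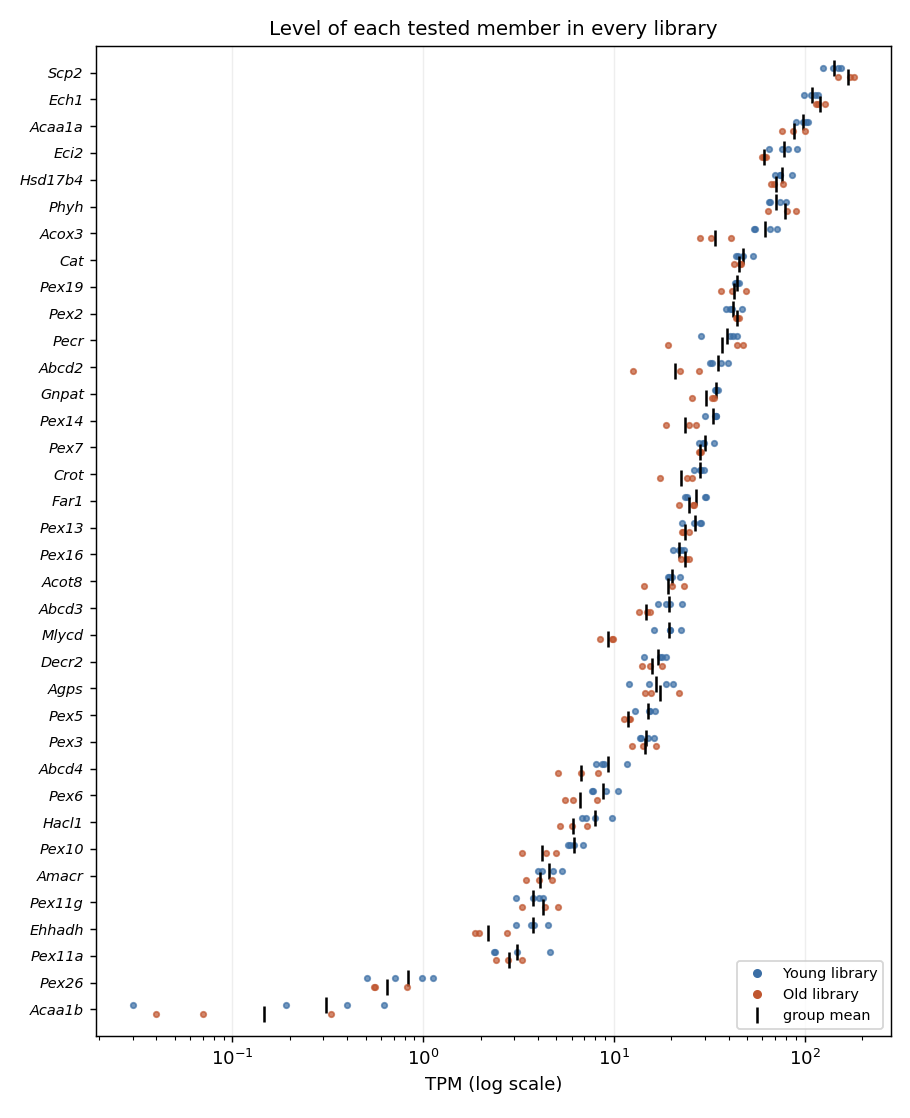
TPM (x axis, log scale) of the 36 tested members in each of the 4 young and 3 old libraries, with the group mean as a vertical tick, ordered by the young mean. Scp2, at a mean of 142.5 TPM in young and 168.2 in old mice, heads the list, and the old libraries of Acox3 and Mlycd lie to the left of all their young libraries.

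Mlycd, which breaks down malonyl-CoA in peroxisomes, mitochondria and cytosol and so lowers the inhibitor of carnitine-dependent fatty acid entry into mitochondria, was the member with the clearest change. It lies on chromosome 8 (GRCm38 119394878-119411102, plus strand), shares no exon with another annotated gene, and had whole counts in all 7 libraries. Its values were 29.2, 32.4, 28.8 and 25.9 CPM in young mice and 16.7, 13.9 and 14.4 CPM in old mice. All old libraries lay well below all young ones. The log2 fold change was -0.96 (SE 0.14, n = 4 and 3, edgeR adjusted p = 0.0280). In TPM, Mlycd fell from 19.5 ± 2.50 to 9.37 ± 0.81 (SD), and its effective length was alike in all libraries, at 2079 to 2089 bases. The size was stable, from -0.90 to -1.04 with any library left out, yet the adjusted p passed the threshold only without 3posI (0.0425) and not without 14C, 18C, 23C, 29C, 2posI or 4posI, where it ran up to 0.121. Of the 13 other analyses, 12 called it, and removing the trend with GC content gave -0.75 with an adjusted p of 0.0526 (range over the 13 analyses 7.94e-08 to 0.0526).

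The other members that hand fatty acids on to mitochondria or remove CoA gave 0 calls. Crot, carnitine octanoyltransferase, which prepares shortened chains for export, ranged from 54.4 to 66.8 CPM in young and 40.0 to 57.1 CPM in old mice (-0.26, SE 0.15, adjusted p = 0.371, edgeR). Acot8, an acyl-CoA thioesterase, stood at 14.9, 13.4, 12.9 and 14.2 CPM in young mice and at 11.9, 18.8 and 13.1 in old mice. Its ages overlapped and its direction (0.08) turned to -0.14 without 3posI. Acot8 shares 246 exonic bases with Snx21 on the other strand, and its counts were whole in 0 of 7 libraries, so its reads were in part divided with other genes.

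The core steps of beta-oxidation were uneven. Acox3, the oxidase of branched-chain acyl-CoA, opened the list with 127.8, 136.4, 112.9 and 127.1 CPM in young mice and 86.7, 69.8 and 92.3 CPM in old mice. All old libraries were below all young ones. The log2 fold change of -0.60 (SE 0.13) had an unadjusted p of 0.0017 and an adjusted p of 0.0781 (edgeR) and so missed the threshold. DESeq2 called Acox3 (adjusted p = 0.0023), Ehhadh (0.0329) and Mlycd, 3 members in the lower direction and 0 in the higher, beside 3.73% and 4.26% of all genes with that test. Over the 13 other analyses the adjusted p of Acox3 ran from 0.0023 to 0.128 and that of Ehhadh from 0.0329 to 0.210. Acox3 also had a longer effective length in old mice, 3154 to 3280 bases against 2714 to 3014 in young mice. Effective length is RSEM's mean of transcript lengths, less the part where no read can start, weighted by the estimated share of each transcript. With that length as an offset the fold change became -0.77 and Acox3 was called (adjusted p = 0.0498). In TPM its means were 61.6 ± 8.43 in young and 33.8 ± 6.54 in old mice (SD, n = 4 and 3). An antisense gene, 4931431C16Rik, shares 700 exonic bases with Acox3, and its mean was 3.39 CPM in young and 2.45 CPM in old mice. Because the libraries were not stranded, per the labels, reads of both genes in that stretch cannot be told apart.

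Ehhadh, the L-bifunctional enzyme that hydrates and dehydrogenates the chain, was less abundant at 6.54, 7.81, 7.77 and 10.3 CPM in young mice and 4.77, 4.37 and 5.74 CPM in old mice. All old libraries were again below the young ones, the nearest pair being 5.74 in 4posI and 6.54 in 14C. The log2 fold change was -0.71 (SE 0.21, edgeR adjusted p = 0.141). Hsd17b4, the D-bifunctional enzyme that does the same steps for most very long-chain and branched substrates, gave nearly equal means. Its values were 137.1, 125.8, 159.3 and 148.7 CPM in young and 165.7, 136.9 and 125.6 CPM in old mice (means of 142.7 in both ages, log2 fold change 0.00036, SE 0.14). In TPM the D-bifunctional enzyme stood at 76.0 ± 6.97 and the L-bifunctional one at 3.77 ± 0.59 in young mice. The sign for Hsd17b4 turned in 9 of the 20 other analyses, left-out libraries included.

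None of the thiolases that close the cycle had an unadjusted p under 0.05. Acaa1a ranged from 117.5 to 126.4 CPM in young mice and from 103.0 to 133.8 in old mice (-0.09, SE 0.13). It shares 290 exonic bases with Myd88 on the other strand, which had a mean of 98.5 CPM in young and 104.9 in old mice. Acaa1b had 21.5, 1.68, 11.3 and 36.1 counts in young mice and 1.77, 3.51 and 17.8 in old mice, which is too few for a fold change to be read. Scp2, which holds the thiolase for branched chains and a sterol carrier, ranged from 92.8 to 118.2 CPM in young and 105.5 to 156.4 in old mice (0.33, SE 0.16, adjusted p = 0.314, edgeR). Only 4posI among the old libraries lay within the young range.

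The 3 ABC transporters of subfamily D, of which Abcd2 and Abcd3 bring acyl-CoA into the organelle, all had negative fold changes, 0 were called and 2 had an unadjusted p under 0.05 (edgeR). Abcd2, an importer of very long-chain and polyunsaturated acyl-CoA, stood at 125.0, 150.5, 127.3 and 152.8 CPM in young and 99.1, 54.3 and 107.7 CPM in old mice. The ages did not overlap, but 3posI was far below the other 2 old libraries. The log2 fold change was -0.67 (SE 0.23, edgeR adjusted p = 0.171), and without 3posI it was -0.42. The summed microglia markers were also lowest in 3posI, at 4272 CPM against 9563 and 9350 in the other old mice, and their part in the Abcd2 value was not tested. Abcd3, which carries branched-chain and bile acid precursors, had 40.9, 46.2, 43.7 and 42.3 CPM in young and 35.6, 36.8 and 34.8 CPM in old mice (-0.28, SE 0.10, edgeR adjusted p = 0.1997). The difference was small but the 3 old libraries were tight, within 34.8 to 36.8. Abcd4, named with this family although it exports vitamin B12 from lysosomes, ranged from 13.8 to 20.6 CPM in young and 10.4 to 14.4 CPM in old mice (-0.40, SE 0.19, edgeR adjusted p = 0.289), with overlap.

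**Figure D3:**
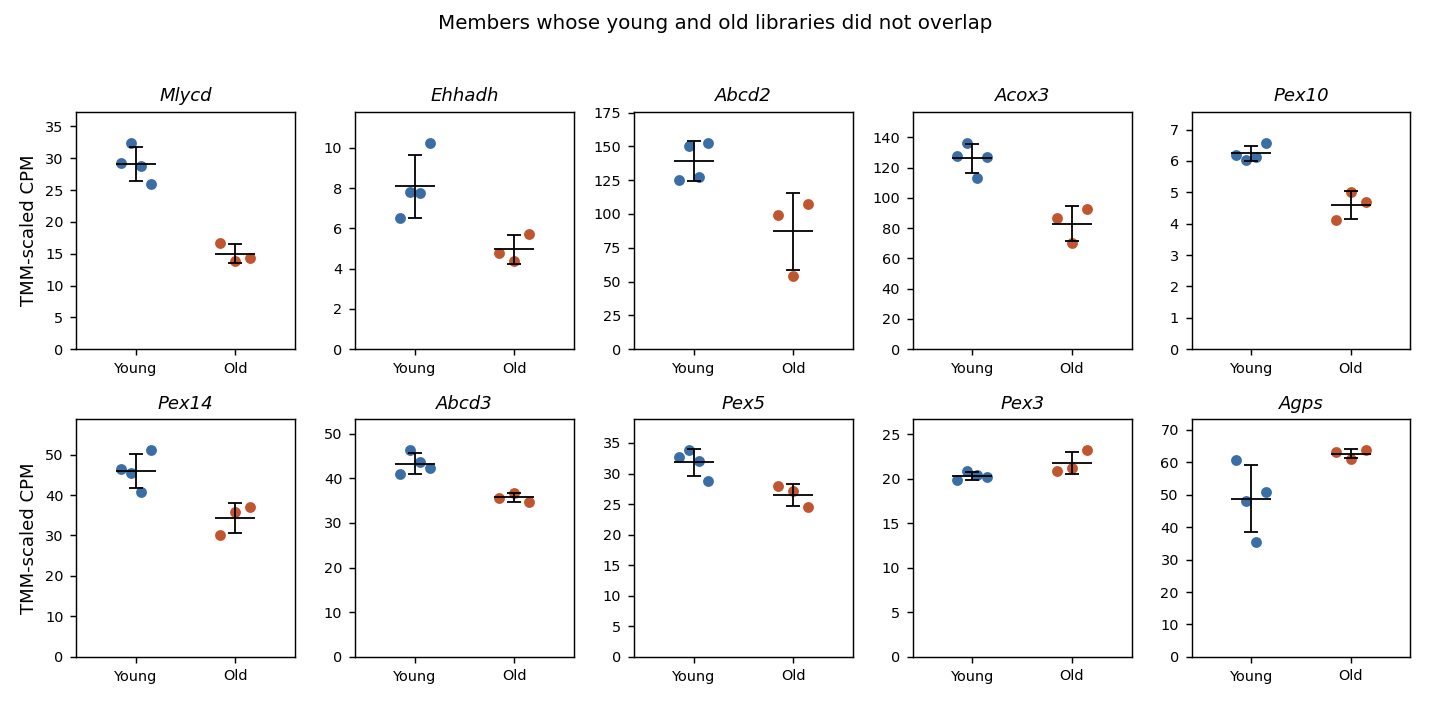
TMM-scaled CPM (y axis, from 0) of the 10 members whose young and old libraries did not overlap, 1 panel per gene, with each library as a point and the mean and SD as a line and bar. In Mlycd the old libraries (13.9 to 16.7 CPM) are well apart from the young ones (25.9 to 32.4 CPM), whereas in Pex3 and Agps, the 2 panels with higher values in old mice, the gap is narrow.

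The enzymes listed as auxiliary, most of which convert double bonds or stereoisomers so that unsaturated and branched chains can pass, gave 0 calls. All 5 had fold changes within 0.25 on the log2 scale, 2 higher and 3 lower, and 0 had an unadjusted p under 0.05. Ech1, a dienoyl-CoA isomerase, ranged from 88.9 to 96.9 CPM in young and 95.6 to 116.5 in old mice (0.23, SE 0.11, edgeR adjusted p = 0.316). Eci2, an enoyl-CoA isomerase, ranged from 56.7 to 81.1 in young and 55.1 to 67.6 CPM in old mice (-0.21, SE 0.15). For Amacr, the racemase, values were 7.27, 8.46, 7.47 and 10.3 CPM in young and 9.77, 6.93 and 7.19 CPM in old mice. Pecr, an enoyl-CoA reductase, varied most in old mice, with 33.1, 34.6, 22.9 and 36.1 CPM in young and 43.6, 17.1 and 34.6 CPM in old mice. Its lowest value was that of 3posI, and without it the log2 fold change went from 0.0057 to 0.31. Decr2, a dienoyl-CoA reductase, gave 22.6, 19.1, 24.9 and 25.1 CPM in young and 22.1, 25.8 and 17.0 CPM in old mice. In Amacr, Pecr and Decr2 the ages overlapped and the direction turned with the analysis or the library left out.

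Alpha-oxidation, which removes 1 carbon from phytanic acid, gave opposite signs. Phyh, phytanoyl-CoA hydroxylase, ranged from 60.9 to 77.2 CPM in young and 61.4 to 96.4 CPM in old mice (0.24, SE 0.18). Hacl1, the lyase of the next step, ranged from 6.71 to 8.73 in young and 5.96 to 7.26 CPM in old mice (-0.23, SE 0.18). It shares 108 exonic bases with Btd on the other strand. It also shares 1540 with Gm49387, a gene of GENCODE vM21 that the expression tables do not hold. Its counts were whole in 1 of 7 libraries, so its reads were in part divided with other genes and its counts are uncertain.

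Of the 3 ether lipid enzymes 2 had positive fold changes and 0 had an unadjusted p under 0.05. Agps, which makes the ether bond, was higher in old mice without overlap, with 60.7, 48.1, 35.6 and 51.0 CPM in young and 63.3, 61.0 and 63.7 CPM in old mice (0.36, SE 0.17, edgeR adjusted p = 0.296). The nearest libraries, 61.0 in 3posI and 60.7 in 14C, were almost equal. Its effective length was also longer in old mice, with a mean of 4808 bases against 4104, and on the TPM scale, where the means were 16.6 ± 3.73 in young and 17.4 ± 3.99 in old mice, the ages overlapped. Far1, which supplies fatty alcohol, stood at 60.3, 60.2, 45.7 and 53.9 CPM in young and 66.9, 68.3 and 52.6 CPM in old mice. Its effective length had means of 2825 bases in young and 3292 in old mice, and its log2 fold change of 0.19 became -0.12 in TPM. Gnpat, which attaches the first acyl chain, had 61.4, 61.6, 63.8 and 65.1 CPM in young and 69.2, 52.7 and 62.5 CPM in old mice (-0.04, SE 0.12). Catalase, which removes the hydrogen peroxide of the oxidases, overlapped between the ages, with Cat at 76.9, 73.4, 84.3 and 75.0 CPM in young and 89.5, 80.4 and 73.1 CPM in old mice (0.07, SE 0.11).

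Among the 13 peroxins 6 were higher and 7 lower in old mice, with a median of -0.01, beside -0.01 for all genes tested, and 0 were called. The 3 that insert membrane proteins all had positive fold changes of at most 0.16. Pex3, the membrane anchor of this step, had 19.9, 20.9, 20.4 and 20.2 CPM in young and 20.9, 21.2 and 23.2 CPM in old mice. The ages were separate by less than 0.1 CPM (20.94 in 18C and 20.95 in 2posI), and the log2 fold change of 0.10 (SE 0.11) turned to -0.03 in TPM. Pex19, the carrier of membrane proteins, stood at 54.1, 54.5, 54.8 and 61.7 CPM in young and 55.5, 67.6 and 50.5 CPM in old mice, and its 0.04 became -0.09 without 3posI. Pex16 ranged from 17.9 to 21.7 CPM in young and 20.9 to 23.5 CPM in old mice (0.16, SE 0.12).

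The receptors and the docking complex of matrix protein import gave unequal values. Pex5, the receptor of most matrix enzymes, had 32.8, 33.8, 32.1 and 28.8 CPM in young and 28.0, 27.1 and 24.4 CPM in old mice. The ages did not overlap, but 28.8 in 29C and 28.0 in 2posI were close (-0.26, SE 0.12, edgeR adjusted p = 0.265, unadjusted p = 0.0503). Pex7, the receptor for the fewer enzymes with an N-terminal signal, which include thiolase, Phyh and Agps, showed 29.8, 31.9, 28.2 and 28.6 CPM in young and 29.7, 30.5 and 28.0 CPM in old mice, with overlap (-0.01, SE 0.11). Pex14, where loaded receptors dock, had 46.3, 45.4, 40.7 and 51.0 CPM in young and 30.1, 35.9 and 37.1 CPM in old mice. All old libraries were below the young ones, and the log2 fold change of -0.42 (SE 0.13) was the one with the lowest adjusted p of the peroxins, 0.145 (edgeR). Its partner Pex13 stood at 32.2, 32.4, 31.0 and 30.9 CPM in young and 36.3, 31.7 and 31.4 CPM in old mice (0.07, SE 0.11), with overlap and the opposite sign. Pex14 lies on chromosome 4 (148960535-149099876, minus strand) and shares 1776 exonic bases with the antisense gene Gm17029, itself at 0.73 CPM in young and 0.47 CPM in old mice. The counts of Pex14 were whole in 0 of 7 libraries, so its reads were in part divided with other genes.

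In the ubiquitin ligase that lets the receptor be recycled, Pex10 had 6.19, 6.04, 6.14 and 6.58 CPM in young and 4.11, 5.01 and 4.69 CPM in old mice (-0.44, SE 0.18, edgeR adjusted p = 0.227), with no overlap between the ages. Its partner Pex2 ranged from 46.3 to 55.3 in young and 51.3 to 61.6 CPM in old mice (0.16, SE 0.12), the other direction. Of the export machinery, the ATPase Pex6 ranged from 17.0 to 23.0 CPM in young and 14.4 to 18.3 CPM in old mice (-0.32, SE 0.16, edgeR adjusted p = 0.311), and its log2 fold change was -0.0085 (edgeR adjusted p = 0.980, range over the 13 other analyses 0.274 to 0.980) with the trend in GC content removed. Its membrane anchor Pex26 was scarce at 2.51, 2.46, 1.26 and 1.68 CPM in young and 2.38, 1.61 and 1.47 CPM in old mice. The division factor Pex11a had 3.38, 2.77, 4.69 and 3.48 CPM in young and 3.10, 3.55 and 3.07 CPM in old mice, and Pex11g ranged from 3.10 to 3.92 in young and 3.25 to 5.38 CPM in old mice. For Pex26 and Pex11a the sign turned with the library left out, for Pex26 also once the trend with transcript length was removed.

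Small differences turned sign with the scale on which the ages were compared. In TPM (limma on log2(TPM + 0.5)) 29 of 36 members were lower in old mice, against 21 on the count scale, but the median of all genes also shifted to -0.09 on that scale (to -0.13 with a pseudocount of 0.1). Relative to that shift the peroxins, with a median of -0.09, were at the median of all genes and the enzymes and transporters, at -0.17, below it. In TPM 11 of the 36 members were lower in old mice without overlap, the 8 named above and Eci2, Crot and Gnpat. The share of all genes tested was 11.2%. In the higher direction there were 0 of 36 members, beside 6.26% of all genes. Pex3, Pex19, Pex13, Acot8, Far1, Cat, Hsd17b4 and Pecr were above 0 on the count scale and below 0 in TPM. The 7 members with an unadjusted p under 0.05 kept a negative fold change in every analysis and with every library left out.

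**Figure D4:**
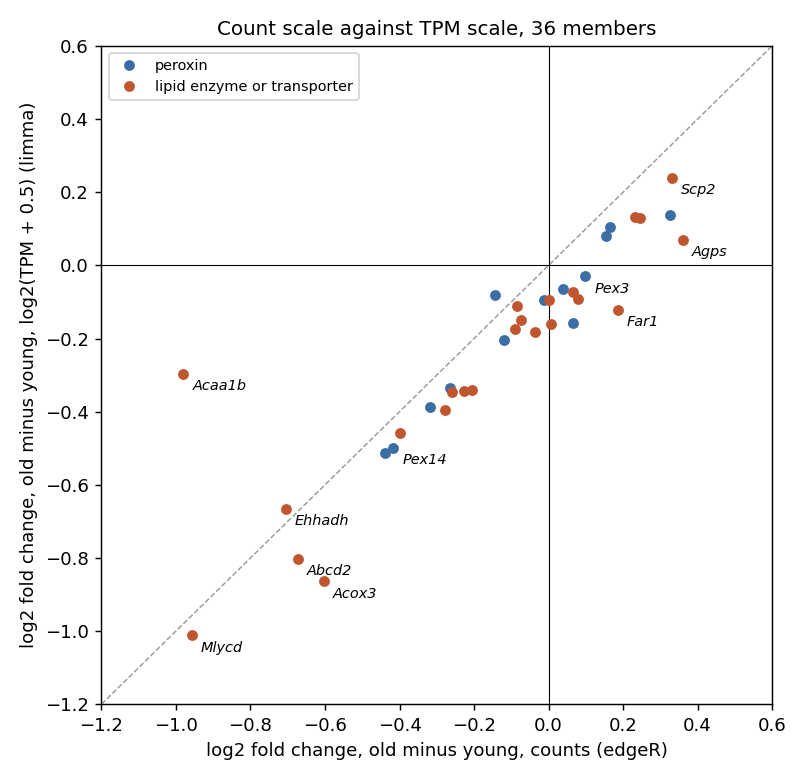
Log2 fold change of the 36 members on the count scale (x axis, edgeR) against that on the TPM scale (y axis, limma on log2(TPM + 0.5)), with peroxins and lipid enzymes or transporters in different colours and the line of equality dashed. All points but those of Acaa1b, Ehhadh and Pex11a lie below the line, beside a median of all genes of -0.09 in TPM and -0.01 on counts, and Acox3 and Far1 lie farther below it than most.

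Properties that the choice of genes did not use differed somewhat among the members. The 7 members with an unadjusted p under 0.05 had a median transcript GC content of 52.2% (41.6 to 59.3%), against 48.8% (36.9 to 63.0%) in the other 29 tested members and 49.5% over all genes. Across the 36 members, which share the same 7 libraries, Spearman's rho of the fold change was -0.34 with GC content. With transcript length, RSEM's value per gene averaged over the libraries, it was -0.39. Over all genes with a value these were -0.14 and -0.07. With the trend in GC content removed, 6 members had an unadjusted p under 0.05 in the lower direction and 2 in the higher, and 0 were called. With the trend in transcript length removed, 6 were lower and 1 higher, and Mlycd was called (edgeR). Abcd3 then stood at -0.15 and Pex5 at -0.13, nearer to no change, whereas Abcd2 and Pex10 went further down, to -0.78 and -0.46. Averaged over the members on the log2 scale and set against the young mean, the enzymes and transporters stood at -0.13, -0.24 and -0.16 in the old mice, below all young values (-0.12 to 0.14), with 18C close to 2posI. The peroxins stood at -0.04, -0.07 and -0.08, 2posI lying within the young range of -0.06 to 0.04 and 3posI and 4posI below it. Every tested member had equal weight in these averages, whatever its level. Acaa1b, which had few counts, stood at 0.04 CPM in 18C and 0.77 CPM in 29C. Its part in the averages of the enzymes and transporters was not tested.

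Other peroxisomal genes, 60 in number, of which 49 were tested, went both ways. Of these 26 were higher and 23 lower in old mice, with a median of 0.04. At an unadjusted p under 0.05 (edgeR) there were 3 in the higher direction (6.12%, against 10.1% of all genes) and 4 in the lower (8.16%, against 8.79%), shares near or below the background. None was called by edgeR, and DESeq2 called Tysnd1 (adjusted p = 0.0193). The lower ones were Tysnd1, the protease that trims imported enzymes (33.7 against 25.2 CPM, -0.42, SE 0.11), Tmem135, a membrane protein linked to peroxisomes (109.8 against 76.8 CPM, -0.52, SE 0.17), Acsl1, an acyl-CoA synthetase shared with mitochondria (38.1 against 31.1 CPM, -0.29, SE 0.12), and Mavs, the antiviral adaptor found on mitochondria and peroxisomes (58.0 against 47.6 CPM, -0.28, SE 0.10). With the trend in GC content removed the log2 fold change of Tysnd1, whose transcripts are 65.2% GC, was -0.027 (adjusted p = 0.919, edgeR), the highest adjusted p of the 13 other analyses, that of DESeq2 being the lowest. Tmem135 was lowest in 3posI, at 55.8 CPM against 85.3 and 89.2 in the other old mice. The higher ones were Prdx5, a peroxiredoxin (230.4 against 367.4 CPM, 0.67, SE 0.23), Mpv17, an inner membrane protein of mitochondria also described in peroxisomes (42.3 against 53.1 CPM, 0.33, SE 0.12), and Fis1, an organelle fission factor shared with mitochondria (108.0 against 135.6 CPM, 0.33, SE 0.13). Prdx5 was highest in 3posI, at 498.4 CPM against 353.4 and 250.5, and its log2 fold change was 0.39 without that library.

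Among regulators of peroxisome proliferation edgeR called 1 gene, Ncoa1, and DESeq2 called 3, Ncoa1, Rxra (adjusted p = 0.0028, up to 0.128 in the 13 other analyses) and Med1 (0.0188, up to 0.221). Over all genes tested edgeR called 0.57% in the higher and 0.233% in the lower direction. For DESeq2 these shares were 4.26% and 3.73%. Ncoa1, a coactivator of nuclear receptors, had 11.7, 10.3, 9.26 and 11.4 CPM in young and 23.5, 26.1 and 22.8 CPM in old mice. Its old libraries lay far above its young ones (1.176, SE 0.14, edgeR adjusted p = 0.0236). The call held without 3posI or 4posI and was lost without 14C, 18C, 23C, 29C or 2posI, where the adjusted p reached 0.108, and 11 of 13 other analyses made it. Of the 10 tested regulators of 11 listed, 5 were higher and 5 lower. At an unadjusted p under 0.05 (edgeR) there were 3 in the higher direction (30%, against 10.1% of all genes) and 1 in the lower (10%, against 8.79%). Rxra, the partner of the PPAR receptors, had means of 27.8 and 44.5 CPM and did not pass the threshold (0.68, SE 0.15, edgeR adjusted p = 0.0718). Ppargc1a, a coactivator, was scarce at 0.22 and 0.73 CPM in mean (1.71, SE 0.60, edgeR adjusted p = 0.180), and Med1, a mediator subunit that binds PPARs, had means of 59.9 and 44.5 CPM (-0.43, SE 0.11, edgeR adjusted p = 0.107).

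Mitochondrial beta-oxidation is the parallel pathway. Of its 20 listed genes, all tested, 10 were higher and 10 lower, with a median of -0.0007. At an unadjusted p under 0.05 (edgeR) there was 1 in the higher direction (5%, against 10.1% of all genes) and 2 in the lower (10%, against 8.79%). Of the list 0 were called by edgeR or DESeq2. Hadha, the long-chain trifunctional subunit, had means of 153.9 CPM in young and 126.9 CPM in old mice (-0.28, SE 0.12), Acsl1 is given above, and Eci1, the mitochondrial isomerase, had means of 19.9 and 24.9 CPM (0.32, SE 0.13). The adjusted p of these 3 genes lay between 0.220 and 0.263 (edgeR).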

How the data were processed

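The libraries were, per the labels, low-input, non-stranded Smart-seq2 preparations of polyA RNA. For RNA extraction the labels name a PureLink kit and the paper's methods PicoPure. The authors trimmed reads, checked them with FastQC 0.11.5, aligned them with STAR to GRCm38 and quantified them with RSEM on a GENCODE annotation (versions of STAR and RSEM: not given in the sources used here), 1 table per library. The deposited tables hold expected counts per gene, TPM, FPKM and effective lengths. FPKM was not used. No molecular identifiers are named, so reads are not independent molecules.

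Expected counts were rounded and tested in edgeR 4.0.16 (two-sided quasi-likelihood F test, TMM factors, Old against Young, n = 3 and 4, no covariate) over 17559 autosomal genes whose expected count exceeded 10 in 1 library or more. The Benjamini-Hochberg threshold was 0.05. The biological coefficient of variation was 37.2%. Depth ran from 36574083 to 53002386 counts per library. TPM was analysed with limma 3.58.1 on log2(TPM + 0.5). The other analyses were limma-voom, as in the paper, DESeq2 1.42.0, RLE and upper-quartile factors, effective length as an offset, no filter, filterByExpr, chromosomes X, Y and M kept, unrounded counts, a pseudocount of 0.1, trends with length or GC content removed (lowess span 0.3), an adjusted p under 0.1, and each library left out. The scripts were tested on simulated data. No 2 libraries held the same counts.

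Members, lists and markers were chosen with earlier results of these data known. Every member is accounted for; values in every library are given for members with an unadjusted p under 0.05, without overlap, or whose call or direction turned under another analysis. From the other lists those with an unadjusted p under 0.05 are named. Coordinates are from GENCODE vM21 (GRCm38), which held 50376 of the 50686 gene identifiers, and promoters from RefSeq (GRCm38.p6). Counts were called whole within 0.001. Protein sequences were not analysed here, and 1 microglia marker is not reported here.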

Additional observations from a re-analysis of the deposited data

Results flagged for a closer look

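The young libraries of Pex19 are listed because 29C lay apart from the others, at 61.7 CPM beside 54.1, 54.5 and 54.8 CPM. The gap to the nearest library was 0.911 of the whole range, which passed Dixon's 95% critical value for 4 samples. Of the 36 members examined in this way 1 passed it, while chance alone gives about 1 in 20, or 1.8 of 36. The old libraries, 3 in number, were too few for this rule.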

How the results depend on the processing

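The number of members with an unadjusted p under 0.05, both directions together, stayed within 1.5 times the main value in all analyses run. By direction, 3 were higher and 7 lower without 4posI, and 1 and 6 without 14C. With the GC trend removed 2 were higher and 6 lower, and with the length trend removed 1 and 6. In the other analyses 0 were higher. The median of the enzymes and transporters stayed within 1 SD of the main value. That median was -0.08, -0.04 to -0.17 with a library left out, -0.08 without Cat and Abcd4, and -0.08 without members whose counts were never whole. The number of members called was 1 and became 3 in DESeq2, 2 with the effective-length offset, 2 at an adjusted p under 0.1, 0 with the GC trend removed, and 0 to 1 with a library left out. Over all genes the number called was 141 and became 1403 in DESeq2, 288 with no filter on counts, 213 with the effective-length offset, 67 and 71 in TPM with pseudocounts of 0.5 and 0.1, 637 at an adjusted p under 0.1, and 1 to 159 with a library left out (1 without 14C, 18C or 2posI). The share of calls that were higher in old mice was 70.9% and became 53.3% in DESeq2, 81.5% with the GC trend removed, 54.5% with no filter on counts, 47.8% and 47.9% in TPM and 50.6% without 4posI. The median of the peroxins, -0.01, became -0.095 and -0.096 in TPM with pseudocounts of 0.5 and 0.1, and ran from -0.039 to 0.030 with a library left out. Pex3 (0.10) reversed in TPM, to -0.030 and -0.031, the median of all genes being -0.09 and -0.13 there. Of the 200 values of single named members under other analyses, 188 kept their direction and side of the threshold. The causes of these changes were not tested. No paired analysis was possible because the groups share no animal, and the labels give no number that ties a young to an old mouse. With 3 and 4 libraries, a single value compared by exact permutation could not go below p = 0.0286, one-sided.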
